A study of Bos taurus with 6 samples.

Results

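The IgG control and Input libraries of a MAT2A ChIP-seq experiment on bovine blastocysts were compared by their called peaks. Neither library was made with an antibody against MAT2A, so the comparison sets the regions called after a mock immunoprecipitation beside those called in the same chromatin without one. All autosomal peaks of the 4 lists were used, which were 6249 of the 11572 peaks in the 6 lists of the series. They comprised 1601 and 1453 peaks in Input 1 and Input 2, and 1645 and 1550 peaks in IgG control 1 and IgG control 2.

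Blastocysts had been produced by in vitro fertilization and cultured to day 8, with fetal calf serum added during culture, and 669 and 677 of them were pooled for replicates 1 and 2. The sheared chromatin of each pool was split after crosslinking. A small aliquot without immunoprecipitation gave Input (chip-antibody: none), and equal larger aliquots were incubated with an anti-MAT2A antibody or with a mouse IgG2B isotype control (MAB004) and recovered on Protein A-coated beads. Libraries with the same replicate number therefore came from the same embryos, and n was 2 for each type. Each pool mixed the inner cell mass and the trophectoderm of many embryos, so no cell type is resolved.

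Input and isotype controls are used in ChIP-seq to find regions that gain reads without the antigen. Peaks of an Input library are known to occur where copies of a repeat are collapsed in the assembly and where chromatin shears readily. An isotype control adds the chromatin that sticks to beads and to antibody of no defined target, and it usually yields less DNA than an Input. Peaks of the deposited lists were called by MACS in each library on its own, and positions are on bosTau8. No gene annotation or sequence of that build was used here, so regions are described by position only. Reads per peak are not given in the lists, so depth at any single peak is unknown. By the study's own read totals Input had more uniquely mapped reads than the IgG control of its pool, and the part of depth in the differences below was not tested. The score of a peak rises with depth and was used here only to rank peaks within a list.

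With 2 libraries a side, an exact two-sided permutation test over the 4 libraries cannot give a p below 0.333. A difference was therefore set against the spread between replicates, and groups are called apart where both libraries of one type lay on the same side of both of the other.

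The strongest regions were common to all 4 lists. The region with the highest mean rank percentile, which is its rank by score in percent of the list with tied peaks given their average rank, lay on chromosome 24 from 19270358 to 19271206, with peaks of 832 and 813 bp in Input 1 and Input 2 and of 796 and 826 bp in IgG control 1 and IgG control 2. Its rank percentile was 99.9 and 99.8 in Input and 99.9 and 100 in IgG control. The next was on chromosome 1 from 61603229 to 61604769, with peaks of 1508 and 1538 bp in Input and 1520 and 1530 bp in IgG control. The others of the 5 highest lay on chromosome 17 from 269491 to 270721, on chromosome 9 from 65872398 to 65874116 and on chromosome 28 from 1893608 to 1894975. Each of these 5 regions was also called in both MAT2A-ChIP lists. Their order is not fully defined, because 5 peaks of Input 1 and 4 of Input 2 shared one high score.

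The number of autosomal peaks did not separate the types. IgG control had 44 more peaks than Input in replicate 1 and 97 more in replicate 2, and the means were 1598 ± 67.2 and 1527 ± 105 (SD, n = 2; exact permutation p = 0.667). With X included the difference was -88 in replicate 1 and 24 in replicate 2 (mean -32), and X carried 422 and 401 peaks in Input and 290 and 328 in IgG control. The peaks covered 651 and 576 kb in Input and 555 and 551 kb in IgG control, so IgG control covered less sequence with more peaks.

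The widths differed in their extremes, and their medians did not separate the types. The median width was 302 and 294 bp in Input and 282 and 294 bp in IgG control, so the IgG control value was 20 bp lower in replicate 1 and equal in replicate 2. In the higher-ranked 50% of each list the difference was -53 and -20.5 bp. Wide peaks were more frequent in Input. Peaks of 500 bp or more made up 21.2% and 19.5% of the Input lists and 10.3% and 13.0% of the IgG control lists, a mean difference of -8.68 percentage points (SD 3.06, n = 2 pairs). Peaks of 1000 bp or more numbered 86 and 78 in Input and 41 and 46 in IgG control. Narrow peaks were more frequent in Input as well, with 21.4% and 21.5% under 200 bp against 15.7% and 15.2%. For each of these 3 shares the groups lay apart (exact permutation p = 0.333, the smallest the design allows).

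Where an IgG control peak and an Input peak of the same replicate overlapped 1 to 1, the IgG control peak was the narrower in most pairs, except at narrow peaks of replicate 2. The median ratio of widths was 0.910 over 683 pairs in replicate 1 and 0.950 over 723 pairs in replicate 2, and the IgG control peak was narrower in 74.7% and 64.0% of pairs. Between replicates of the same type the ratio of replicate 2 to replicate 1 was 0.982 over 966 pairs for Input and 1.02 over 618 pairs for IgG control. For Input peaks under 300 bp the ratio of IgG control to Input was 0.966 (271 pairs, 63.1% narrower) and 1.01 (294 pairs, 47.3% narrower). For Input peaks of 500 bp or more the ratio of IgG control to Input was 0.775 (207 pairs) and 0.877 (201 pairs). Input 2 over Input 1 gave 0.956 in the same class, which was likewise chosen by the width in the first list (264 pairs). The centres of the paired peaks differed by a median of 21.5 and 19 bp.

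The widest peak of both Input lists was on chromosome 17, from 50909337 to 50915509 in Input 1 (6173 bp) and from 50909479 to 50914970 in Input 2 (5492 bp). Within the span of the Input 1 peak, IgG control 1 and IgG control 2 each called 2 peaks, which covered 4207 and 5137 bp. In IgG control 2 the widest peak was part of the same region (3850 bp). The widest peak of IgG control 1, also on chromosome 17 but from 25040504 to 25044555 (4052 bp), overlapped no peak in any of the other 5 lists and had a rank percentile of 43.3.

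The clearest difference was in spacing. Input peaks lay in clusters, and many IgG control peaks lay alone. The median gap from a peak to its nearest neighbour in the same list was 2681 and 2614 bp in Input, and 148415 and 58098 bp in IgG control. A neighbour within 10 kb was found for 63.1% and 64.6% of the Input peaks and for 38.5% and 41.7% of the IgG control peaks. The difference was -24.6 and -22.9 percentage points in replicates 1 and 2 (mean -23.8, SD 1.17), against an SD between replicates of 1.09 points in Input and 2.26 points in IgG control. Peaks with no neighbour within 1 Mb numbered 253 and 247 in Input and 396 and 369 in IgG control. In both MAT2A-ChIP lists, which were immunoprecipitated alongside with another antibody, 39.6% and 42.4% of peaks had a neighbour within 10 kb, close to the values of IgG control. When only the higher-ranked 50% of each list was kept, which also removes lower-ranked neighbours, the difference was -4.38 points in replicate 1 and 0.24 points in replicate 2.

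**Figure D1:**
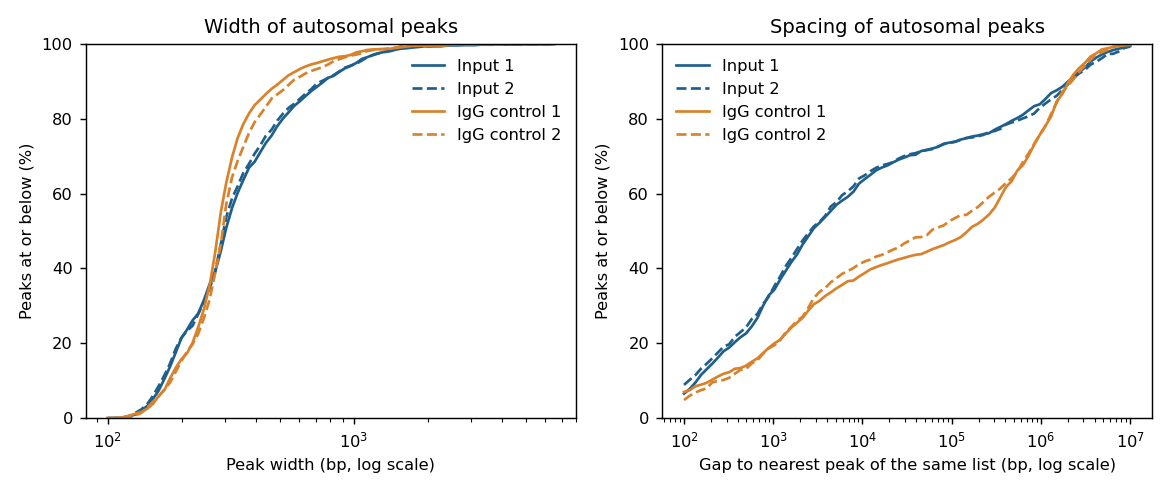
Cumulative share of autosomal peaks (%) by width (left, bp on a log scale) and by the gap to the nearest peak of the same list (right, bp on a log scale), with 1 line for each of the 4 lists. The Input lines lie below IgG control at widths of 500 and 1000 bp and reach 63.1% and 64.6% at a gap of 10 kb, where IgG control is at 38.5% and 41.7%.

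When peaks within 10 kb were joined, the Input lists formed 844 and 744 units and the IgG control lists 1188 and 1086, so IgG control occupied 344 and 342 more separate places than Input. Clusters of at least 3 peaks held 778 and 733 Input peaks (48.6% and 50.4%) and 453 and 458 IgG control peaks (27.5% and 29.5%). In Input clusters of 6 or more peaks (37 and 33 clusters), 61.3% and 66.1% of peaks were overlapped by IgG control of the same replicate. Of the single Input peaks, 29.6% (95% Wilson interval 26.1 to 33.4%) and 36.2% (32.1 to 40.4%) were overlapped, and their median rank percentile was 28.9 and 30.0, against 62.3 and 60.3 in the large clusters. Of the single IgG control peaks, 22.5% (20.1 to 25.2%) and 25% (22.3 to 27.9%) were overlapped by Input. Wilson intervals cover counting error only.

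The largest cluster of Input 1 was on chromosome 1 from 145293618 to 145450518, with 73 peaks. Within this span Input 2 had 66 peaks and each IgG control list had 48, and the bases under peaks were 29627 and 27272 in Input and 15021 and 15229 in IgG control. This region was thus called in all 4 lists with fewer peaks and fewer bases under them in IgG control. The largest cluster of Input 2 was nearly the same, from 145295196 to 145451650 with 67 peaks. The largest cluster of IgG control 1 was on chromosome 29 from 30247326 to 30384496, with 41 peaks there, 36 in IgG control 2 and 49 in each Input list. The largest cluster of IgG control 2 (21 peaks) shared most of this span, from 30300990 to 30384582. The first megabase of the autosomes held 11.9% and 12.2% of the Input peaks and 8.15% and 9.23% of the IgG control peaks.

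By overlap of at least 1 bp, about equal shares of both types were common. IgG control 1 overlapped 747 of the 1601 Input 1 peaks (46.7%, 95% Wilson interval 44.2 to 49.1%) and IgG control 2 overlapped 774 of the 1453 Input 2 peaks (53.3%, 50.7 to 55.8%). These are called kept, and the other 854 and 679 Input peaks are called lost. Conversely, 798 IgG control 1 peaks (48.5%, 46.1 to 50.9%) and 784 IgG control 2 peaks (50.6%, 48.1 to 53.1%) overlapped an Input peak, and the other 847 and 766 are called gained. Lost and gained mean the absence of a call in the other list, since reads can be present under the threshold. Over both lists of a pair, libraries of different types shared 47.6% and 51.9% of peaks within a replicate and 50.2% and 48.8% across replicates. The Input replicates shared 67.8% and the IgG control replicates 42.9%. An IgG control list therefore had more peaks in common with an Input list than with the other IgG control list.

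The overlap followed the rank. In the highest quintile of the Input lists 97.2% and 98.6% of peaks were overlapped by IgG control, and in the lowest 9.38% and 12.1%. In IgG control the shares were 96.4% and 97.4% in the highest quintile and 7.90% and 7.40% in the lowest. The median rank percentile of kept Input peaks was 75.4 and 72.3, against 30.5 and 28.1 for lost peaks. It was 74.8 and 73.8 for shared and 28.4 and 26.9 for gained IgG control peaks. Only 9 and 4 lost Input peaks and 12 and 8 gained IgG control peaks were in the highest quintile of their list.

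At the same rank the types differed in the lower quintiles. In the second quintile from the bottom, 62.8% and 68.2% of the Input peaks had a neighbour within 10 kb, but 14.8% and 15.2% of the IgG control peaks did. In the highest quintile these shares were 73.5% and 70.4% in Input and 67.8% and 68.4% in IgG control. Peaks in that second quintile that the other type lacked were found again in the other replicate of their own type for 39.4% and 49.7% of lost Input peaks, and for 3.60% and 2.26% of gained IgG control peaks. In each of the 5 quintiles, both Input lists were above both IgG control lists in this share.

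**Figure D2:**
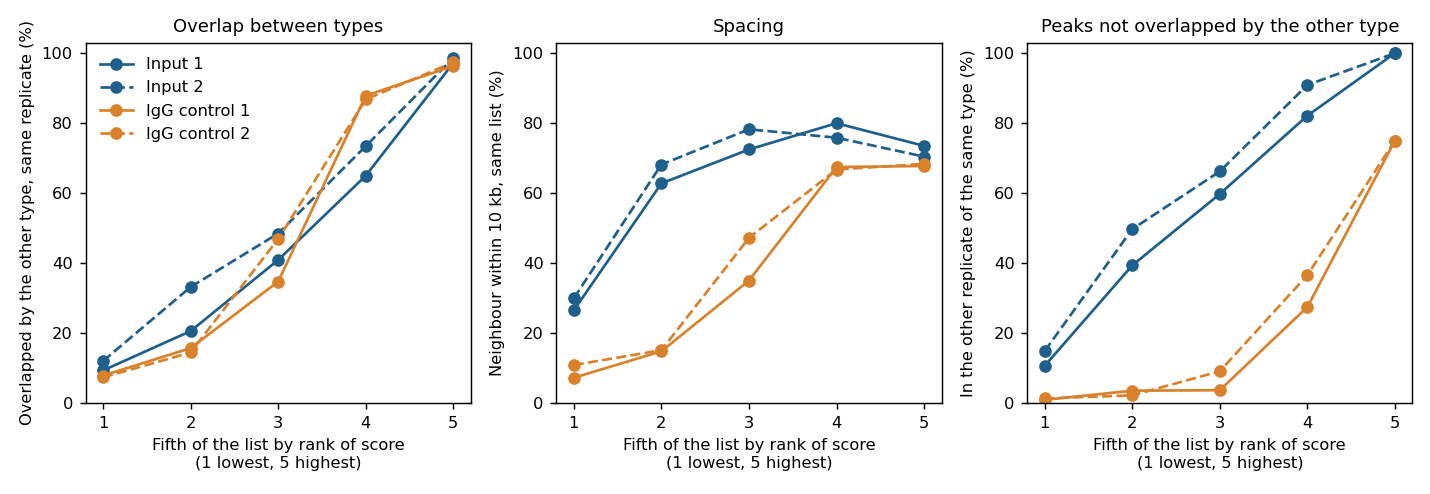
Shares of peaks (%) in 5 classes of about equal size by rank of score within each list, from the lowest (1) to the highest (5), with 1 line per list. From left to right they are peaks overlapped by the other type of the same replicate, peaks with a neighbour within 10 kb, and, of peaks not overlapped by the other type, those found in the other replicate (in the highest class these rest on 9, 4, 12 and 8 peaks of Input 1, Input 2, IgG control 1 and IgG control 2).

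Lost and gained peaks also differed in spacing and in the range of their widths. Lost Input peaks had a median width of 281 and 276 bp, 51.3% and 51.7% had another Input peak within 10 kb, and 41.7% and 46.2% had an IgG control peak of the same replicate within 10 kb. In 91 and 84 of them that IgG control peak was within 500 bp. Gained IgG control peaks had a similar median width, 277 and 286 bp, but a narrow range, with quartiles of 247 and 301 bp in replicate 1 and 252 and 312 bp in replicate 2. Of these, 7.44% and 11.5% had another IgG control peak within 10 kb, and 55.1% and 56.7% were more than 1 Mb from any peak of the Input list of the same replicate. An Input peak of the same replicate lay within 10 kb of 9.09% and 12.9% of the gained peaks. Of the lost peaks, 19.4% and 21.8% were more than 1 Mb from any IgG control peak of the same replicate. The 2 shares beyond 1 Mb have unlike bases. Joined within 10 kb, Input peaks formed 844 and 744 units and IgG control peaks 1188 and 1086. The share that position alone would give was not computed. Peaks of 500 bp or more were 0.59% and 1.70% of the gained peaks, 9.25% and 7.22% of the lost peaks, and 34.8% and 30.4% of the kept peaks.

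The classes were then compared in libraries that had not defined them. They were not matched for rank, and kept and shared peaks ranked well above lost and gained peaks. Contrasts of kept with lost and of shared with gained therefore include that difference in rank. Lost and gained peaks ranked alike, with median percentiles of 30.5 and 28.1 against 28.4 and 26.9. Of the lost Input peaks, 40.4% and 45.4% overlapped a peak of the other Input list, compared with 91.3% and 95.1% of the kept peaks. Of the gained IgG control peaks, 4.84% and 6.01% overlapped a peak of the other IgG control list, compared with 82.0% and 80.5% of the shared peaks. The MAT2A-ChIP library of the same pool overlapped 85.7% and 80.6% of kept and 18.6% and 20.2% of lost Input peaks. It overlapped 84.8% and 80.6% of shared and 4.84% and 5.87% of gained IgG control peaks. In both measures the gained peaks were below the lost peaks in each replicate, by more than the replicates of either class differed.

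**Figure D3:**
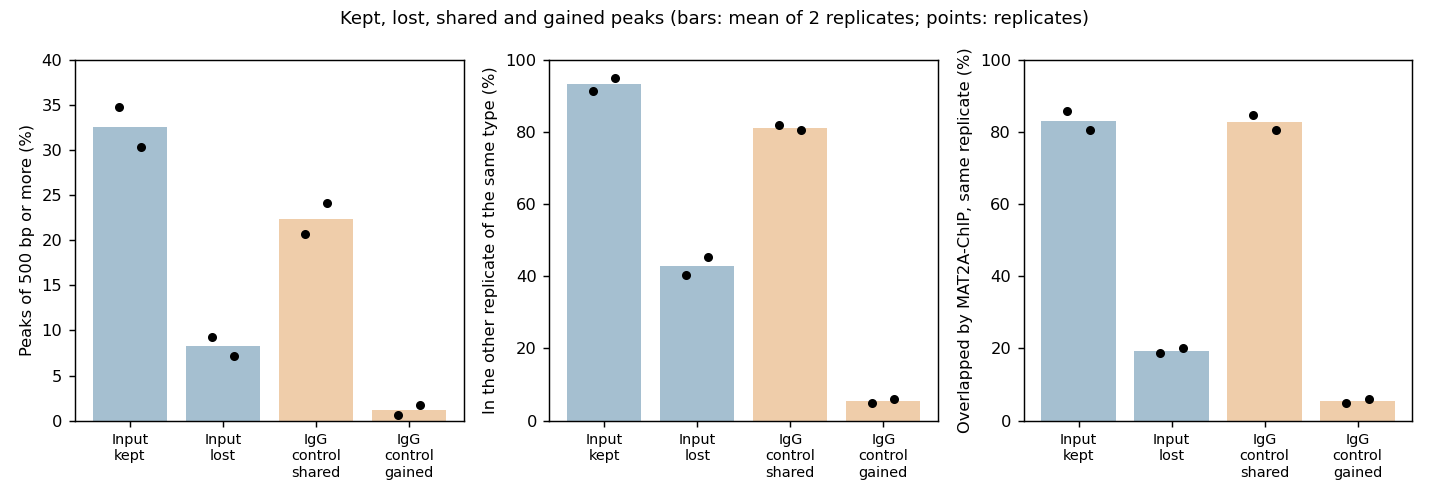
Share of peaks (%) of 500 bp or more (left), found in the other replicate of the same type (middle) and overlapped by the MAT2A-ChIP library of the same replicate (right), for kept and lost Input peaks and shared and gained IgG control peaks. Bars are means of 2 replicates and points the replicates, and gained peaks are the lowest in each panel.

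The peaks of the 4 lists were then merged into 3465 regions, of which 584 were called in all 4 lists and 2283 in 1 list. A region was lost in both replicates when both Input lists and no IgG control list called it, which held for 211 regions or 6.09% of all. A region was gained in both replicates when both IgG control lists and no Input list called it, which held for 22 regions or 0.635%. Of the 1000 regions called in both Input lists, 58.4% were called in both IgG control lists, 20.5% in 1 and 21.1% in none (95% Wilson interval 18.7 to 23.7%). Of the 644 regions called in both IgG control lists, 90.7% were called in both Input lists, 5.90% in 1 and 3.42% in none (2.27 to 5.12%). The larger number lost than gained rests on requiring both replicates, since replicate 1 alone had 854 lost and 847 gained and replicate 2 alone 679 and 766, and Input replicates shared more peaks than IgG control replicates. When only the higher-ranked 50% of each list was kept, so that a lower-ranked call counted as an absence, 74 were lost and 40 gained. With peaks of a list joined within 1 kb there were 142 lost and 19 gained, and within 10 kb 64 and 9. Regions called in a single IgG control list and in no Input list numbered 1463, or 42.2% of all regions.

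Regions lost in both replicates were spread over 28 autosomes, with 19 on chromosome 14, 17 on chromosome 7 and 15 on chromosome 27. Chromosome 14 held 9.0% of them, beside 11.2% and 10.8% of all Input peaks, chromosome 7 held 8.06%, beside 5.06% and 5.23%, and chromosome 27 held 7.11%, beside 4.87% and 5.09%. Of the lost regions, 116 (55.0%, 95% Wilson interval 48.2 to 61.5%) lay within 10 kb of a region called in all 4 lists, near the 60.8% (56.8 to 64.7%) of those regions that lay within 10 kb of another, and 105 (49.8%, 43.1 to 56.5%) were called in at least 1 MAT2A-ChIP list, with 19 in both. Of all merged regions 30.6% (1061) were called in at least 1 MAT2A-ChIP list, and of those in both Input lists and 1 IgG control list 81.2% (IgG control 1) and 72.5% (IgG control 2). By rank the first was on chromosome 20 from 72037009 to 72037623, with peaks of 399 and 615 bp and rank percentiles of 71.6 and 85.3 in Input 1 and Input 2. The second, on chromosome 14 from 2189634 to 2189799, had narrow peaks of 166 and 159 bp with percentiles of 80.7 and 71.9. The third, on chromosome 27 from 28731331 to 28731496, had peaks of 162 and 159 bp, percentiles of 77.0 and 73.3, and no call in either MAT2A-ChIP list. The next were on chromosome 13 from 5347784 to 5348245 and on chromosome 11 from 27306175 to 27306345, each called in 1 MAT2A-ChIP list.

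There were 22 regions gained in both replicates. Of these, 5 (22.7%, 95% Wilson interval 10.1 to 43.4%) lay within 10 kb of a region called in all 4 lists. Among the lost regions 55.0% did. At least 1 MAT2A-ChIP list called 12 of the 22 gained regions (54.5%, 34.7 to 73.1%). This share was 49.8% for the lost regions, likewise called in 2 lists. It was 30.6% for all merged regions, most of which were called in 1 list. For regions of both IgG control lists and 1 Input list it was 81.0% (Input 1, 21 regions) and 94.1% (Input 2, 17 regions). The gained region highest in rank was on chromosome 4 from 33576534 to 33576654, with peaks of 114 and 121 bp in IgG control 1 and IgG control 2. Its rank percentiles there were 78.8 and 86.0. The second was on chromosome 22 from 42408062 to 42408194, with peaks of 125 and 133 bp and percentiles of 83.3 and 73.8. Neither was called in MAT2A-ChIP. The third, on chromosome 16 from 34309442 to 34309843 (302 and 387 bp), and the fourth, on chromosome 1 from 144123961 to 144124126 (158 and 145 bp), were each called in MAT2A-ChIP 2. The next, on chromosome 4 from 61174856 to 61175090 (178 and 235 bp), was called in both MAT2A-ChIP lists.

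**Figure D4:**
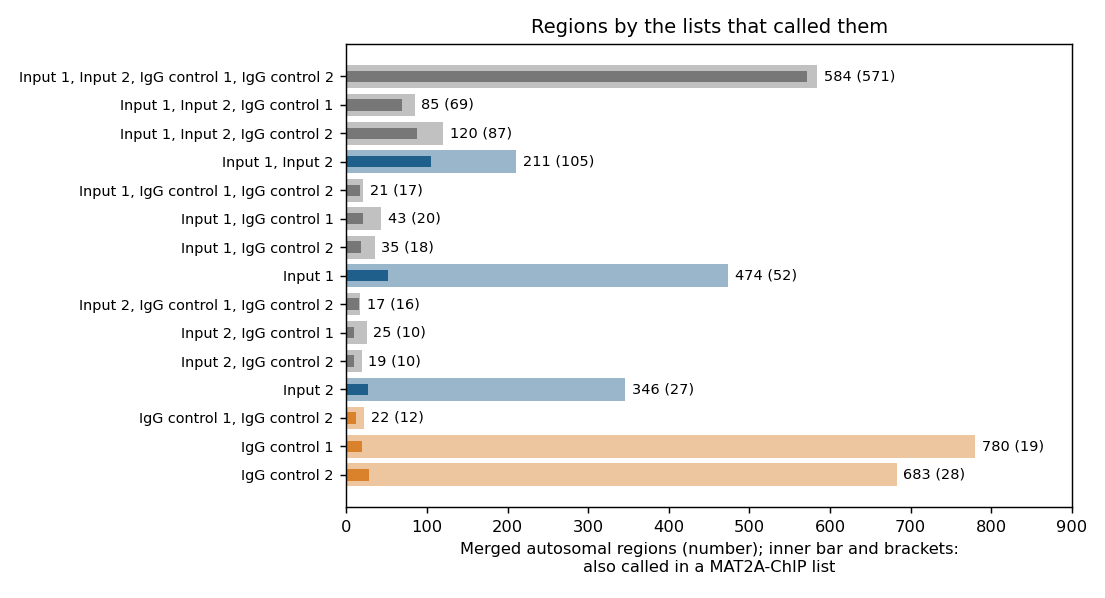
Number of merged autosomal regions for each combination of the 4 lists that called them, with the number also called in at least 1 MAT2A-ChIP list as the inner bar and in brackets. Regions of 1 IgG control list (780 and 683) were the most frequent and were called in MAT2A-ChIP in 19 and 28 cases, while 571 of the 584 regions of all 4 lists were.

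The number of peaks per autosome ran from 13 to 180 and from 10 to 157 in Input, and from 18 to 141 and from 18 to 140 in IgG control. Chromosome 14 carried the most peaks in every list, 180 and 157 in Input and 141 and 140 in IgG control. Chromosome 12 carried the fewest in both Input lists and chromosome 20 the fewest in IgG control, with chromosome 25 equally low in IgG control 2. Over the 29 autosomes, the share of peaks was compared with limma on log2 shares with the replicate as a block. The share was higher in IgG control on 3 autosomes (10.3% of the 29) and lower on 0 (0%) at a Benjamini-Hochberg adjusted p under 0.05, with 6 higher and 3 lower at an unadjusted p under 0.05. Both IgG control shares were above both Input shares on 13 autosomes (44.8%) and below both on 8 (27.6%).

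The largest rise was on chromosome 12, with 13 and 10 peaks in Input (0.812% and 0.688% of the list) and 38 and 26 in IgG control (2.31% and 1.68%). Its log2 fold was 1.36 (SE 0.19, limma adjusted p = 3.09e-06). Of its 38 and 26 IgG control peaks 34 and 22 were gained, beside 51.5% and 49.4% of all autosomal IgG control peaks. Gained peaks numbered from 12 to 57 and from 7 to 50 per autosome in replicates 1 and 2, with a median of 25 in each. Chromosome 15 had 18 and 18 peaks in Input and 38 and 34 in IgG control, a log2 fold of 0.91 (SE 0.19, limma adjusted p = 0.000838). Chromosome 2 had 38 and 27 peaks in Input and 68 and 47 in IgG control, a log2 fold of 0.74 (SE 0.19, limma adjusted p = 0.00603). With lists of equal length, or with either Input library left out (then without the block), no autosome passed, although with equal lists the log2 folds were 1.53, 0.87 and 0.72 for chromosomes 12, 15 and 2. Chromosome 2 also did not pass without the block (limma adjusted p = 0.0794), in the higher-ranked 50% of each list (0.430), with peaks within 10 kb joined (0.258) or without IgG control 1 (0.0838). The adjusted p over all alternatives ran from 3.81e-06 to 0.155 for chromosome 12, from 4.87e-07 to 0.155 for chromosome 15 and from 0.00442 to 0.430 for chromosome 2. The log2 folds of these 3 autosomes were above 0 in every alternative. A single spread was shared by all autosomes in this fit, although those with few peaks vary more.

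The largest falls were on chromosome 18, from 45 and 33 peaks to 30 and 28 (log2 fold -0.47, limma adjusted p = 0.112), chromosome 27, from 78 and 74 to 57 and 58 (-0.47, limma adjusted p = 0.112), and chromosome 29, from 90 and 77 to 68 and 61 (-0.43, limma adjusted p = 0.129). None of these passed the threshold in the main fit, although the groups lay apart in share on each. With covered bases in place of the number of peaks, 9 autosomes passed (7 higher, 2 lower), among them chromosomes 18 and 29. Gained peaks were more numerous on longer autosomes. Across the 29 autosomes, the number of gained peaks had a Pearson r of 0.83 and 0.80 (Spearman rho 0.85 and 0.82) with the end of the last peak called on the chromosome, used in place of its length. For all IgG control peaks r was 0.52 and 0.51 (rho 0.57 and 0.54). For lost peaks r was 0.33 and 0.30 (rho 0.36 and 0.32), and for all Input peaks 0.31 and 0.29 (rho 0.26 and 0.30). These correlations are descriptions across chromosomes of the same libraries, which are not independent replicates.

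**Figure D5:**
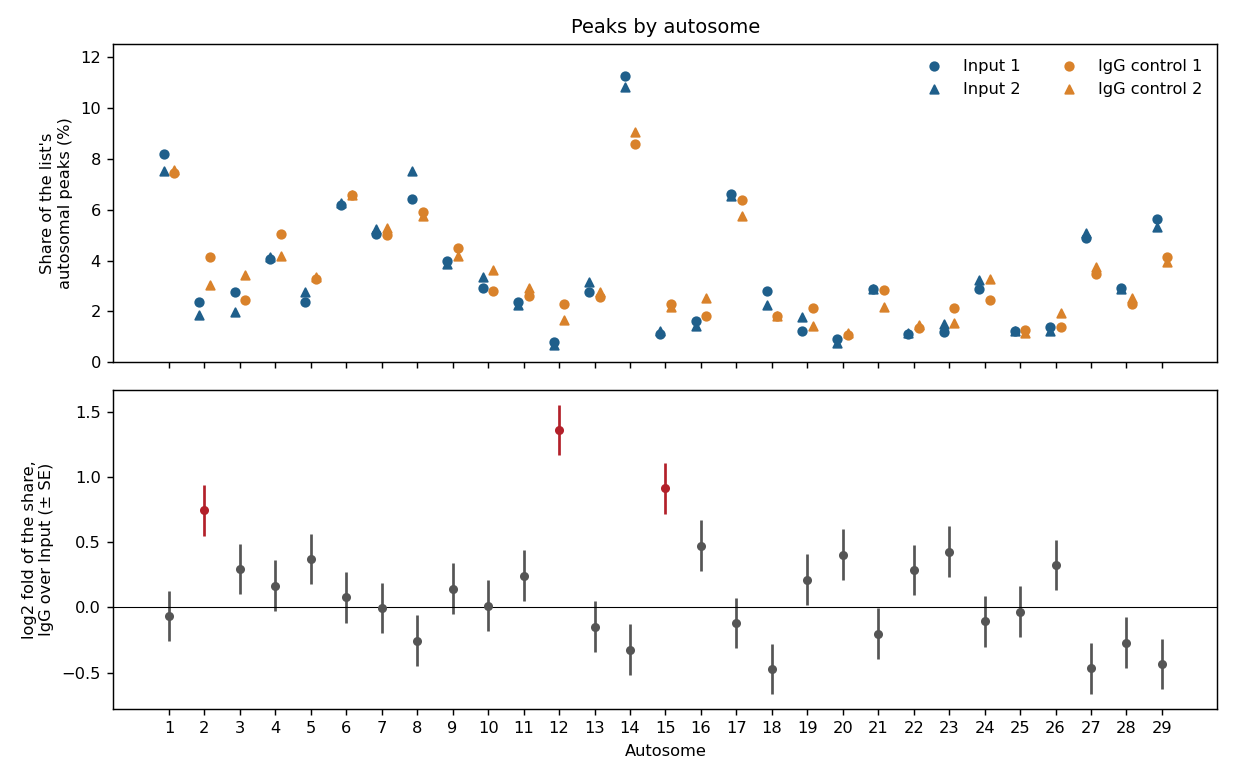
Share of each list's autosomal peaks by autosome (upper, %) and log2 fold of the share in IgG control over Input with its SE from limma (lower). Chromosomes 2, 12 and 15, in red, passed an adjusted p of 0.05, and chromosome 14 had the highest share in all 4 lists.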

How the data were processed

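ChIP-seq peak lists of 2 IgG control and 2 Input libraries of bovine blastocysts were analysed, and the 2 MAT2A-ChIP lists were used for comparison. The authors trimmed adapters (bcl2fastq), mapped single reads by Bowtie 1.1.2 on bosTau8 chromosomes, leaving out scaffolds, and ran MACS 1.4.2 at default settings on each library. No control sample is named for the calling, and replicates were not pooled. The deposited score is, as MACS defines it, -10 times the log10 of a peak's p-value. It depends on depth, which the lists do not give, so it served only for ranks within a list.

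Groups came from the sample titles. Replicate numbers pair libraries by the pool whose chromatin was divided. As a check, libraries of different types shared 49.7% of peaks with the same number and 49.5% with different numbers (means of 2 pairs). The overlap thus showed no sign of the pairing, which rests on the titles and the study's methods. Peaks on the 29 autosomes were kept. Starts in the lists count from 0 and are printed from 1. Peaks overlapping by 1 bp or more were matched, and overlapping peaks of the 4 lists were merged into regions. Shares of peaks per autosome, log2((peaks + 0.5)/(list + 1)), were tested with limma 3.58.1 in R 4.3.3 with the replicate as a block and Benjamini-Hochberg adjustment. Single values were tested by exact permutation over libraries. Peaks were not treated as replicates. Other values were computed in Python 3.11.15 (scipy 1.17.1, numpy 2.4.6), overlaps were checked against bedtools 2.31.1, and the scripts were tested on simulated data.

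The regions named were the 5 of each of 3 kinds (called in all 4 lists, lost in both replicates, gained in both replicates) with the highest mean rank percentile, the widest peak and the largest cluster of each list, and the 3 autosomes with the largest rise and fall. The comparison, the lists and these rules were chosen with earlier results of these data known. Alternatives were other overlap rules, lists of equal length (1453 peaks), the higher-ranked 50% of each list, X included, peaks joined within 1 kb, other distances, crossed replicates, a fit without the block, and each replicate or library left out. Joining peaks within 10 kb, and joining within 1 kb before merging regions, were added after seeing the data.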

Additional observations from a re-analysis of the deposited data

How the results depend on the processing

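Of 66 values under alternatives other than leaving out a replicate pair, 38 stayed within the replicate spread, or within 1.5 times for counts, and 1 mean changed sign. The difference in the number of peaks, 70.5 on autosomes, was -32 with X included (-88 and 24 by replicate), 200 with peaks within 1 kb joined and 343 with peaks within 10 kb joined. Keeping the higher-ranked 50% of each list, which turns lower-ranked calls and neighbours into absences, gave a median width difference of -36.8 bp, a difference in neighbours within 10 kb of -2.07 points, 70.7% of Input and 70.3% of IgG control peaks overlapped, differences in median rank of 38.7 and 40.2, and 74 regions lost and 40 gained in both replicates. The difference in neighbours was -20.2 points with peaks within 1 kb joined and -15.1 at 1 kb. With peaks within 500 bp counted, 55.7% of Input peaks were overlapped and the rank differences were 43.2 (Input) and 46.2 (IgG control). The share of IgG control peaks overlapped was 52.8% with X, 53.5% with equal lists and 35.6% with peaks within 10 kb joined, where 64 regions were lost and 9 gained in both replicates. The rank difference was 42.2 (Input) and 45.5 (IgG control) with X, and 45.9 (IgG control) with equal lists. The causes were not tested.

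Without replicate 1 or 2, the count of regions lost was 679 and 854 and of regions gained 766 and 847, since a single pair then decides. With 2 pairs a single replicate always lies within 1 SD of their mean, so the other values by replicate say nothing of stability. They ran from 44 to 97 peaks, -20 to 0 bp, -24.6 to -22.9 points, 46.7 to 53.3% (Input overlapped), 48.5 to 50.6% (IgG control overlapped), 44.2 to 44.9 and 46.4 to 46.9 in rank, and 0.910 to 0.950 in width ratio. The limma count of 3 autosomes was 0 with equal lists (7 at an unadjusted p under 0.05), where the log2 folds of chromosomes 2, 12 and 15 were 0.72, 1.53 and 0.87, and 9 for covered bases (7 higher, 2 lower). It was 2 with no replicate block (chromosomes 12 and 15), so chromosome 2 did not pass without the block. Each library left out, also with no replicate block, gave 0 to 4 autosomes, with 0 (5 unadjusted) without Input 1 and without Input 2. With peaks within 10 kb joined, chromosomes 12 and 15 passed as higher and 25 as lower. Depth at single peaks is unknown and limits each absence of a call.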
